A study of Mus musculus
Mus spretus with 18 samples.

Results

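Exon skipping was compared between the alleles from C57BL/6J and from SPRET/EiJ in the liver of F1 hybrid mice. The hybrids were females with a C57BL/6J mother and a SPRET/EiJ father, and the tissue was taken at 8 weeks of age without any treatment. Members were the skipped exon events of the liver on autosomes with at least 20 junction reads on both alleles in both replicates. They numbered 13594 of the 18937 events in the liver table, and 4931 further autosomal events and 412 events on the X chromosome were left out. The members described 12089 exons of 5164 genes, and the same rule applied to all 14 libraries of the 6 organs and the embryonic stem cells (ESC) gave 66347 events that passed in at least 1 of them. Both alleles of a library came from the same cells and the same RNA, so each liver library gave 1 C57BL/6J and 1 SPRET/EiJ value (n = 2 per allele). Because every C57BL/6J allele was maternal and every SPRET/EiJ allele paternal, the strain of an allele and its parent of origin cannot be told apart. The labels spelled the strain of the liver mice C57BL/7J x SPRET/EiJ and C57BL/8J x SPRET/EiJ, which was read as the C57BL/6J of the series' design. The study describes the replicates as biological and the liver as taken from the same animals as the other organs, while the labels do not tie the libraries to animals. Per the study, the liver data came from its authors' earlier work, unlike those of the other organs.

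In an F1 hybrid, both alleles meet the same splicing factors in the same nucleus, and a difference between them therefore reflects sequence that acts on its own allele or marks carried by it. A cassette exon is recognised through its splice sites, the branch point and enhancer or silencer motifs in the exon and the flanking introns. The liver is made largely of hepatocytes, which secrete most plasma proteins, run bile acid, lipid and nitrogen metabolism, and hold the cytochrome P450, glutathione transferase, sulfotransferase and glucuronosyltransferase enzymes that clear foreign compounds.

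Inclusion was measured as percent spliced in (PSI), the share of transcripts that keep the exon. It was obtained from junction reads that support inclusion or skipping, each divided by its effective length. ΔPSI is PSI on C57BL/6J minus PSI on SPRET/EiJ, averaged over both replicates, and its SD is given over the 2 replicates. The C57BL/6J allele had 46793808 and 40434049 junction reads in replicates 1 and 2, and the SPRET/EiJ allele had 43070354 and 39046509. These sums count a read once for each event it supports. A member had a median of 212 to 232 reads per allele and replicate. Of all junction reads, 72.8% and 73.2% could be given to an allele, and 52.1% and 50.9% of those went to C57BL/6J. Hepatocyte markers summed to 123906 and 141763 TPM (transcript abundance per library), with all 8 of 8 detected and the lowest at 743 TPM. Markers of the other cell types summed to far less, from 4.65 and 5.82 TPM for 5 lymphocyte genes to 169 and 259 TPM for 5 Kupffer cell genes.

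Most exons were spliced alike on both alleles. The median |ΔPSI| between alleles was 0.0103 over all members, beside 0.00697 between the replicates of the C57BL/6J allele and 0.00692 between those of the SPRET/EiJ allele. Most members, 10913 (80.3%), lay above 0.9 or under 0.1 on both alleles and in all reads. Over the 2681 others the median |ΔPSI| between alleles was 0.0769, against 0.0530 and 0.0526 between replicates of C57BL/6J and SPRET/EiJ. The allelic values compare means of both replicates and the replicate values compare single measurements. Within replicates 1 and 2 alone, the median between alleles was 0.1 and 0.0802 over these 2681 events. Over all members it was 0.00718 and 0.00962. A ΔPSI of at least 0.1 in size was seen for 986 members (7.25%), of which 58 reached 0.5 and 11 reached 0.9.

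An allelic difference was called where |ΔPSI| reached 0.1 with an adjusted p under 0.05, from a quasi-binomial model with limma-moderated dispersions. It was called for 190 members (1.4% of those tested) that described 185 exons of 157 genes. The exon was included more on the C57BL/6J allele in 108 (0.794%) and more on the SPRET/EiJ allele in 82 (0.603%). The share higher on C57BL/6J was 56.8% (exact 95% binomial interval 49.5% to 64.0%, counting error only). The interval treats the 190 events as independent, which overlapping exons of a gene are not, so it is too narrow. A member that lay above 0.9 or under 0.1 on both alleles cannot reach a |ΔPSI| of 0.1. The 190 could therefore only come from the 2681 other members, of which they were 7.09%. The median |ΔPSI| of the called events was 0.323, and the PSI values of the alleles did not overlap in 190 of 190, beside 30.1% of all members. At an unadjusted p under 0.05, 1752 members passed. The alleles of a library share their RNA, and with the library as a block no member was called (0 calls, 478 at an unadjusted p under 0.05), a fit that leaves 1 residual degree of freedom. Limma-voom on inclusion and skipping counts called 66, and 64 of those were among the 190. With the block and the prior dispersion of the fit without it, 104 were called, and 100 of those were among the 190. Leaving out any of the 4 allelic counts left 1 call, and 38 to 61 calls where the prior of the full data was kept.

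**Figure D1:**
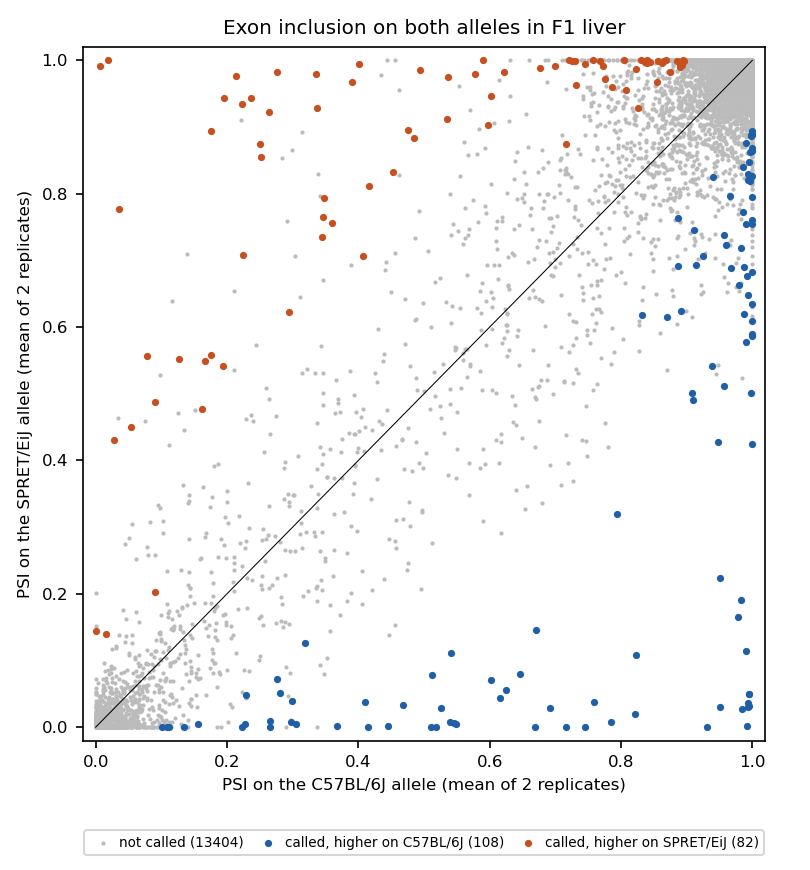
PSI of each of the 13594 members on the C57BL/6J allele (x axis) and the SPRET/EiJ allele (y axis), each the mean of 2 replicates. Blue points were called as higher on C57BL/6J (108) and orange points as higher on SPRET/EiJ (82); grey points were not called and crowd the corners at PSI 0 and 1, and many called points lie along an edge of the plot.

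The allele with more inclusion had a mean PSI above 0.9 in 114 of the 190 called events, a share near that of the members away from PSI 0 and 1 (1560 of 2681). The allele with less inclusion had a mean PSI under 0.1 in 57 of the 190, beside 276 of those 2681 members. Both alleles lay between 0.1 and 0.9 in 30 of the 190, beside 856 of the 2681. A complete switch, from above 0.9 to under 0.1, was seen in 11 events of 7 genes, which were H2-Q10, Mrps17, Gm16157, Pkp4, Cfhr2, Tor1aip1 and Tmbim6. Mrps17 alone held 5 of these events, which share their upstream splice site and differ in where the exon ends. H2-Q10 and Cfhr2 belong to families of close copies, and the SPRET/EiJ value of Tmbim6 rested on 32 and 28 reads. Their switches are therefore uncertain.

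The share of differences that were called rose with depth. Among members with |ΔPSI| of at least 0.1, 6.07% of the 560 with 83 to 365 allelic reads were called, 21.5% of 265 with 366 to 914, 54.2% of 118 with 915 to 3559 and 81.4% of 43 with 3561 or more. Over the same ranges the median difference between replicates fell from 0.0727 to 0.0464, 0.0256 and 0.0153 for events away from PSI 0 and 1. The absence of a call in a shallow event therefore says little. At the edge of the read filter, 116 events with exactly 20 reads on their poorest allele had a median |ΔPSI| of 0.0476, and 115 with 19 reads, just outside, had 0.05.

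For description, 12 exons in each direction were taken with the largest ΔPSI among called events, 1 per gene. Both replicates had to give the same sign, and the PSI values of the alleles could not overlap. The PSI from allelic reads had to lie within 0.1 of the PSI from all reads. All coordinates are in mm10, counted from 1.

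The largest difference of all named exons was in H2-Q10. It encodes a secreted class I histocompatibility molecule made by hepatocytes. Its 33-base exon (chr17:35473768-35473800, + strand) had a PSI of 0.991 and 0.992 on the C57BL/6J allele and 0.00132 and 0.000740 on the SPRET/EiJ allele, from 7580 to 25780 reads per allele and replicate. ΔPSI was 0.990 ± 0.000840 (SD, n = 2; adjusted p = 1.93e-10). Class I genes are near copies of each other, so reads may have been split among them and the value is uncertain. Cfhr2 encodes a complement factor H-related plasma protein and also belongs to a family of close copies. Its 174-base exon (chr1:139831064-139831237, - strand) had a PSI of 0.942 and 0.959 on C57BL/6J and 0.0297 and 0.0313 on SPRET/EiJ, and both alleles were far apart in both replicates. Fewer of its reads, 48.7%, could be given to an allele than over all members (median 75.3%).

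Mitochondrial translation was represented by Mrps17, a protein of the small mitochondrial ribosomal subunit, and Mtif2, a mitochondrial initiation factor. The Mrps17 exon (229 bases, chr5:129715684-129715912, + strand) was included in all C57BL/6J reads of replicate 1 and had a PSI of 0.987 in replicate 2, against 0.0367 and 0.0236 on SPRET/EiJ. ΔPSI was 0.963 ± 0.000177 (adjusted p = 0.000660). The Mtif2 exon (151 bases, chr11:29526693-29526843, + strand) had a PSI of 0.748 and 0.743 on C57BL/6J and no inclusion read on SPRET/EiJ among 83 and 40. In both genes, the SPRET/EiJ allele all but lacked the exon, and the total junction reads of both genes fell short of the 2-fold limit for balance. The log2 ratio of C57BL/6J to SPRET/EiJ was 0.82 for Mrps17 (limma-voom adjusted p = 0.0135) and 0.50 for Mtif2 (adjusted p = 0.119). Balance sums inclusion and skipping reads without dividing by effective length. An included exon can give reads at both of its junctions, so an allele that includes it more gains reads by counting alone.

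Pkp4 encodes plakophilin 4, an armadillo protein of cell junctions. Its 132-base exon (chr2:59305066-59305197, + strand), whose length is a multiple of 3, had a PSI of 1.00 and 0.862 on C57BL/6J and 0 and 0 on SPRET/EiJ (ΔPSI 0.931 ± 0.0979, adjusted p = 0.00419). None of the 206 and 193 SPRET/EiJ reads supported inclusion, and both alleles were close to balance over the gene (log2 ratio 0.27). Tec, a kinase related to Btk that acts in leukocyte signalling and is also read in liver, differed in the other direction. Its 66-base exon (chr5:72779421-72779486, - strand) had a PSI of 0.438 and 0.362 on C57BL/6J against 0.988 and 1.00 on SPRET/EiJ.

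Cdc26 and Zscan21 act in the nucleus. Cdc26, a small subunit of the anaphase-promoting complex, had a PSI of 0.992 and 0.963 on C57BL/6J and 0.183 and 0.148 on SPRET/EiJ for a 97-base exon (chr4:62404456-62404552, - strand). Zscan21, a zinc finger protein, had 1.00 and 0.982 against 0.125 and 0.103 for an 85-base exon (chr5:138117836-138117920, + strand), with 27 to 108 reads per value. Both genes also had more reads from C57BL/6J, by 1.19 and 1.52 on the log2 scale. Rcbtb1, an RCC1 and BTB domain protein, went the other way, with 0.132 and 0.258 on C57BL/6J and 0.979 and 0.909 on SPRET/EiJ for a 98-base exon (chr14:59205625-59205722, + strand).

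More inclusion on SPRET/EiJ was largest in size for Tor1aip1 and Tmbim6 among the named exons. Tor1aip1 encodes LAP1, an inner nuclear membrane protein that activates torsin ATPases. Its 56-base exon (chr1:156019968-156020023, - strand) had a PSI of 0.00963 and 0.00416 on C57BL/6J and 1.00 and 0.982 on SPRET/EiJ (ΔPSI -0.984 ± 0.00855, adjusted p = 0.000751). Tmbim6, also called Bax inhibitor 1, had 0.0186 and 0.0185 on C57BL/6J and 1.00 and 1.00 on SPRET/EiJ (215 bases, chr15:99399657-99399871, + strand; ΔPSI -0.981 ± 0.000102). That value rested on 32 and 28 SPRET/EiJ reads beside 5011 and 5629 from C57BL/6J. C57BL/6J held 99.4% of the allelic reads at this event and 61.9% and 61.7% over the gene, and 63.2% of the event's reads could be given to an allele. The agreement of allelic reads with all reads therefore says little about SPRET/EiJ at this event. The part of this imbalance in the difference was not tested. Fam134b, an endoplasmic reticulum autophagy receptor named Retreg1 in RefSeq, had a PSI of 0.293 and 0.380 against 0.991 and 0.967 (118 bases, chr15:25941126-25941243, + strand). Asph, an aspartyl beta-hydroxylase of the endoplasmic reticulum, had 0.254 and 0.248 against 0.837 and 0.872 for a 48-base exon (chr4:9598733-9598780, - strand). Tmem234, a predicted transmembrane protein, had 0.266 and 0.181 against 0.899 and 0.970 (219 bases, chr4:129601407-129601625, + strand).

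Enzymes and transporters of hepatocytes showed differences in both directions. Cyp2c40, a cytochrome P450, had a PSI of 0.968 and 0.997 on C57BL/6J and 0.263 and 0.119 on SPRET/EiJ for a 142-base exon (chr19:39786759-39786900, - strand). Gsta3, an alpha-class glutathione transferase, had 0.775 and 0.794 against 0.0169 and 0 (140 bases, chr1:21254684-21254823, + strand). In both, C57BL/6J held most of the event's reads, 95.7% and 97.0%, and both belong to families of near copies, so these values are uncertain. Ugt3a1, a glycosyltransferase of the UGT3 family, had 0.405 and 0.375 on C57BL/6J, from 26 and 22 reads, against 0.980 and 0.955 on SPRET/EiJ (154 bases, chr15:9283862-9284015, + strand). Hyi, a putative hydroxypyruvate isomerase that RefSeq lists as a transcribed pseudogene, had 0.0317 and 0.0400 against 0.787 and 0.766 (84 bases, chr4:118360306-118360389, + strand), and SPRET/EiJ also had more of its reads (log2 ratio -1.92). Slc29a1, the equilibrative nucleoside transporter ENT1, had 0.313 and 0.382 against 0.724 and 0.863 (101 bases, chr17:45593332-45593432, - strand), with an adjusted p of 0.0481 that is close to the threshold. The same held for 1300002K09Rik, named Stra6l in RefSeq and related to the retinol transporter Stra6, at an adjusted p of 0.0492; its PSI was 0.446 and 0.543 on C57BL/6J and 1.00 and 0.970 on SPRET/EiJ (255 bases, chr4:45855375-45855629, + strand).

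The remaining 4 named genes were noncoding or predicted genes. Gm16157, 2210408F21Rik and Gm11789 had more inclusion on C57BL/6J (ΔPSI 0.957 ± 0.0285, 0.802 ± 0.0203 and 0.727 ± 0.0389), and Gm20319 had more on SPRET/EiJ (ΔPSI -0.707 ± 0.00296). All 4 genes were also called for allelic balance, each with more reads from the allele that included the exon more. Over all 24 named exons, 12 lay in genes called for balance, beside 23.6% of the genes with a called exon and 8.85% of the genes with any member. Tor1aip1 was among these 12 and went the other way. Its exon was included more on SPRET/EiJ, while more of its reads came from C57BL/6J (log2 ratio 1.45). Inclusion reads were not divided by effective length in these sums, so the allele with more inclusion gains reads by counting alone. The size of that part was not tested.

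**Figure D2:**
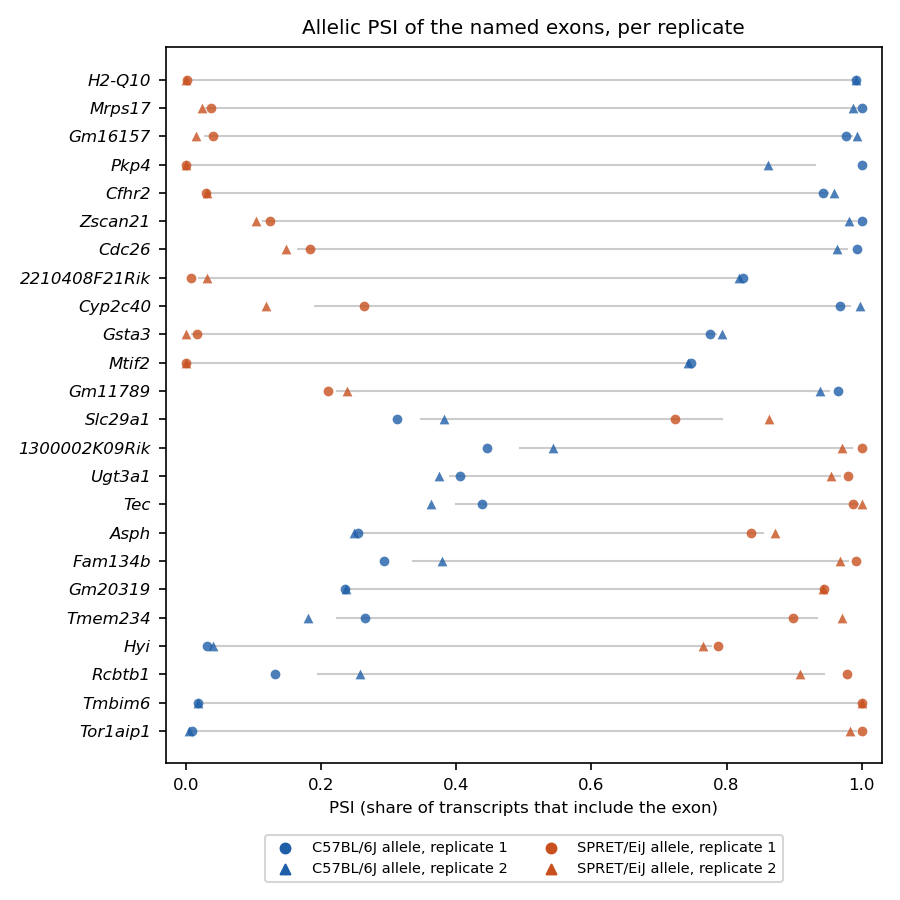
PSI (x axis) of the 24 named exons on the C57BL/6J allele (blue) and the SPRET/EiJ allele (orange), with circles for replicate 1 and triangles for replicate 2; a grey line joins the allelic means. The replicates of an allele sit together. The alleles do not overlap in any of the 24, as the choice of exons required. The widest gap is in H2-Q10 (0.990) and the narrowest in Slc29a1 (-0.446).

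The direction of the named exons was the same wherever they could be read in other organs. Of the 24, 17 had at least 20 reads on each allele and replicate in at least 1 other tissue or ESC, which gave 71 values, and 71 of 71 had the sign of the liver. Mrps17, Pkp4 and Tor1aip1 were near complete in all 6 others: ΔPSI ranged from 0.882 to 0.969 in Mrps17, from 0.899 to 0.994 in Pkp4 and from -0.989 to -0.952 in Tor1aip1. Asph had -0.603 in liver and ranged from -0.390 in spleen to -0.231 in heart in the others. Fam134b had a ΔPSI of -0.525 in kidney and -0.0145 in heart, and Tec ranged from -0.569 in kidney to -0.370 in spleen. The sizes in different tissues were tested for kidney only.

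**Figure D3:**
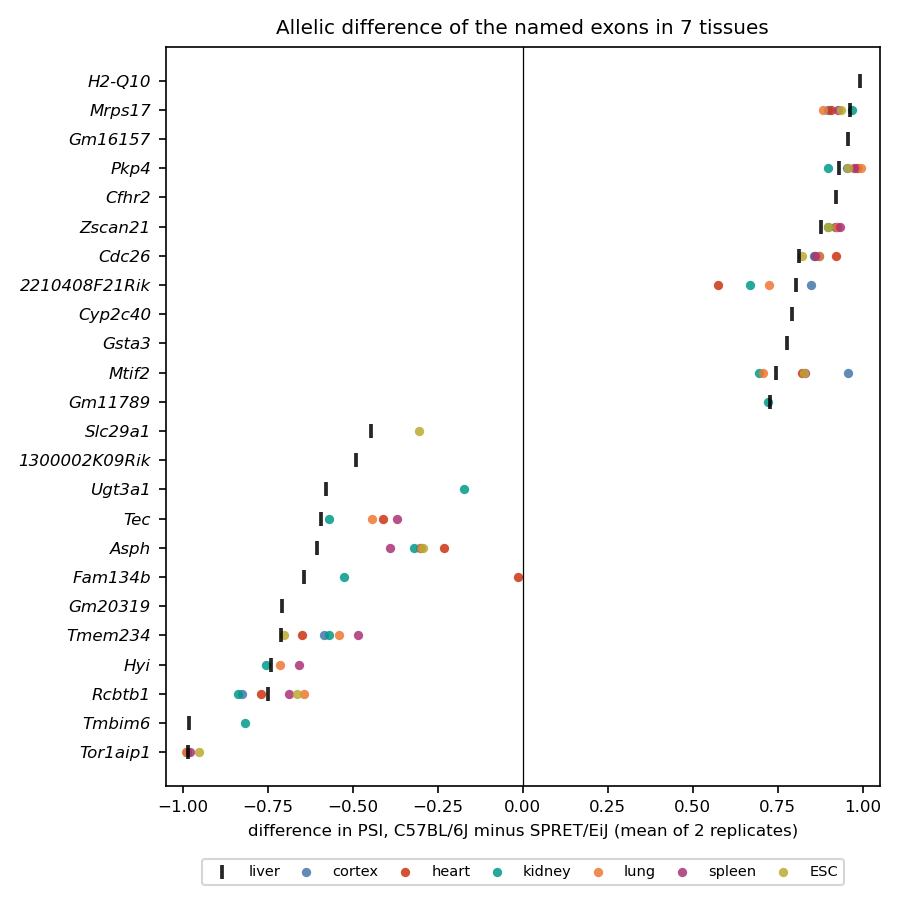
ΔPSI (x axis, C57BL/6J minus SPRET/EiJ, mean of 2 replicates) of the 24 named exons in liver (black bar) and, as coloured points, in each of 6 other tissues or ESC with at least 20 reads per allele and replicate. Points lie on the side of the liver bar in 71 of 71 values; rows without coloured points were measured in liver only, and Fam134b in heart lies near 0.

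Most called events also kept the direction of the liver, with exceptions in every tissue but lung. Between 115 called events in ESC and 157 in kidney could be read, and 96.7% in cortex to 100% in lung had the sign of the liver, while members that were not called shared it in 65.5% to 69.5%. The median ΔPSI in the liver's direction was 0.189 in cortex and 0.222 in heart, 0.247 in ESC, and 0.256, 0.275 and 0.276 in kidney, lung and spleen. A difference of at least 0.1 in the opposite direction was seen in 2 events in cortex and 1 in kidney, and in 0 in heart, lung, spleen and ESC. Of the called events, 31 (16.3%) had enough reads in liver only, beside 17.6% of all members.

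More than 1 called exon was found in 24 genes. In 18 of them, called exons overlapped each other or had the same skipping reads, as the nested forms of Mrps17, Slco2b1 and Itih4 did, so their directions are not separate observations. The other 6 genes had separate called exons, in 1 direction in 3 (Gm20319, Josd2 and Ugt3a1) and in both directions in 3 (Acmsd, Nkiras1 and Slc4a1ap). These were named after their values were seen. Nkiras1, an inhibitor of NF-kappa-B signalling, had exons at ΔPSI -0.439 and 0.429, Slc4a1ap, also called kanadaptin, at -0.345 and 0.372, and Acmsd, a decarboxylase of tryptophan breakdown, at -0.163 and 0.414. Josd2, a deubiquitinase, had both at 0.256 and 0.716.

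The length of the called exons was close to that of the rest. Their median length was 122 bases (quartiles 84 and 160), and that of all members was 114 (82 and 155). A length that is a multiple of 3 was found in 43.7% of called events, in 43.0% of all members and in 45.9% of the members away from PSI 0 and 1. Exons of 30 bases or less made up 3 of the 190 (1.58%), beside 1.55% of all members. The median upstream intron was 2104 bases in called events and 1985 in all members. More of the reads of called events could be given to an allele, with a median of 90.7% against 75.3%.

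Gene lists of liver functions were read against the 1.4% of all members that were called. Xenobiotic metabolism had 13 called of 407 members (3.19%), in 11 genes, with 5 higher on C57BL/6J and 8 on SPRET/EiJ. Many genes of this list belong to families of near copies, whose reads may be split among members. Liver transporters had 6 of 219 (2.74%), in 5 genes, with 5 events higher on C57BL/6J, of which 2 were nested exons of Slco2b1. Plasma proteins had 3 of 475 (0.632%), in 2 genes, as 2 of the events were nested exons of Itih4. Lipid and bile acid metabolism had 2 of 332 (0.602%), and amino acid, urea, haem and sugar metabolism 1 of 466 (0.215%). Splicing factors had 0 of 148, liver transcription factors 0 of 64 and imprinted genes 0 of 23. At an unadjusted p under 0.05 these 3 lists held 11, 4 and 3 members, and limma-voom, which called 66 members in all, called 0 of each. At a background of 1.4%, lists of this size would hold few calls. The median |ΔPSI| of the lists lay between 0.00101 for plasma proteins and 0.0180 for splicing factors, with 0.0103 over all members.

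Among the enzymes of drug metabolism, Ugt3a2, of the same family as Ugt3a1, had a PSI of 1.00 and 0.998 on C57BL/6J and 0.496 and 0.506 on SPRET/EiJ for a 535-base exon (chr15:9361448-9361982, + strand). Gsta3 and Ugt3a1 were described above. The list also held called exons of Ces3a, Ces3b, Cyp2c38, Cyp2d10, Gstz1, Nr1i3 and Sult1d1, whose |ΔPSI| ranged from 0.101 to 0.218. Of these, Nr1i3 encodes the nuclear receptor CAR, which senses foreign compounds, and its 131-base exon had a PSI of 0.846 and 0.818 on C57BL/6J against 0.618 and 0.618 on SPRET/EiJ.

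Transporters of the hepatocyte membrane followed. Slco2b1, an organic anion uptake transporter, had a PSI of 0.631 and 0.462 on C57BL/6J and 0.00778 and 0.00405 on SPRET/EiJ for a 305-base exon (chr7:99695063-99695367, - strand). Abcb11, the bile salt export pump, had 0.240 and 0.218 against 0.0619 and 0.0345 for a 75-base exon (chr2:69330464-69330538, - strand). Abcc6, an ABC transporter that is abundant in liver, had 0.987 and 0.985 against 0.811 and 0.869 (159 bases, chr7:45979876-45980034, - strand). Slco1a1, an organic anion transporter, had 1.00 and 1.00 against 0.901 and 0.889 for a 196-base exon. All of these were included more on C57BL/6J, unlike Slc29a1.

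Among plasma proteins, Itih4, an acute-phase inter-alpha-trypsin inhibitor heavy chain, had a PSI of 0.894 and 0.889 on C57BL/6J and 0.636 and 0.613 on SPRET/EiJ for a 48-base exon (chr14:30897526-30897573, + strand), from 13358 to 17715 reads per value (ΔPSI 0.268 ± 0.0123, adjusted p = 0.000660). Fetub, or fetuin-B, had 0.905 and 0.887 against 0.999 and 0.999 (235 bases, chr16:22929075-22929309, + strand). In metabolism, Kynu, or kynureninase of tryptophan breakdown, had 0.998 and 0.997 against 0.883 and 0.889 (231 bases, chr2:43679752-43679982, + strand). Clec4g, a lectin of sinusoidal endothelial cells, had 1.00 and 1.00 against 0.796 and 0.794 (111 bases, chr8:3719476-3719586, - strand). The called exon of Lpin1, in lipid metabolism, was among the 15 called events whose PSI from allelic reads lay more than 0.1 from that of all reads (378 of all members did), and it is not described further.

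**Figure D4:**
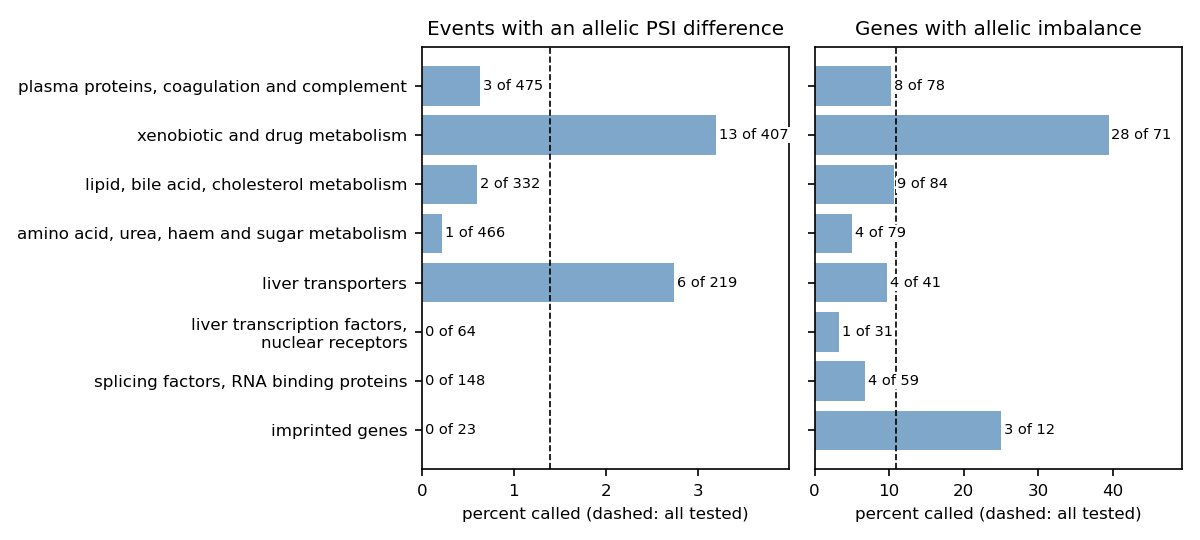
Percent of members called for an allelic PSI difference (left, x axis) and percent of genes called for allelic imbalance of junction reads (right, x axis) in each gene list, with the counts beside the bars. The dashed lines give all members (1.4%) and all genes tested (10.9%). Xenobiotic metabolism, which holds many genes of near-copy families, stands above both, at 13 of 407 events and 28 of 71 genes.

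The balance of the alleles was read from the junction reads of inclusion and skipping summed over the events of a gene, without dividing by effective length. The reads of an allele therefore also rise with its inclusion of an exon. Of 5913 genes tested with limma-voom, 646 (10.9%) were called at an adjusted p under 0.05 and a ratio of at least 2-fold, with 339 (5.73%) higher on C57BL/6J and 307 (5.19%) on SPRET/EiJ. The log2 ratio of C57BL/6J to SPRET/EiJ had a median of 0.01, with quartiles at -0.32 and 0.37, and 185 called genes reached 3 in size. The ratios of both libraries differed by a median of 0.20 on the log2 scale. Genes with a called exon were called for balance in 37 of 157 (23.6%), and genes with any member, which needs reads on both alleles, in 457 of 5164 (8.85%). The part of this gap that follows from counting inclusion reads undivided was not tested. With the library as a block the number of imbalanced genes was 756, and 643 of the 646 were among them. Without size factors, 302 of 629 calls (48.0%) were higher on C57BL/6J, against 339 of 646 (52.5%).

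The largest imbalances were all but complete. They include genes, such as Hsd3b2 and Arhgef19, that entered the test through their higher allele alone. Among genes higher on C57BL/6J, Mug1, a murinoglobulin that inhibits plasma proteinases, had 145310 and 150251 reads from C57BL/6J and 148 and 105 from SPRET/EiJ, which is 99.9% in both replicates (chr6:121838496-121889057). Its neighbour Mug2 had 99.4% and 99.6%. Sult2a2, a sulfotransferase of steroids and bile acids, had 99.9% in both, from 10403 and 6905 C57BL/6J reads beside 10 and 6. Hsd3b2, a steroid dehydrogenase, had 578 and 551 C57BL/6J reads beside 0 and 3, and Enpp3, an ectonucleotide pyrophosphatase, had 705 and 475 beside 2 and 4. Arhgef19, a guanine nucleotide exchange factor, had 568 and 500 beside 2 and 0, Nxpe2 had 375 and 373 beside 0 and 2, and 9030619P08Rik had 4699 and 2587 beside 5 and 2. In all 8 of these genes, SPRET/EiJ held under 1% of the reads in each replicate.

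Among genes higher on SPRET/EiJ, Mgst2, a microsomal glutathione transferase that also makes leukotriene C4, had 7 and 2 reads from C57BL/6J and 26621 and 19122 from SPRET/EiJ (chr3:51636912-51682675). Hsd17b3, a testosterone-forming hydroxysteroid dehydrogenase, had 9 and 11 beside 9322 and 7443. Il1r2, the decoy receptor of interleukin 1, had 0 and 2 beside 715 and 691, and Tmem52 had 0 and 1 beside 615 and 425. Ren1, or renin, had 23 and 0 beside 1376 and 613, so that its few C57BL/6J reads came from 1 library. Mup18 and Mup5, which encode major urinary proteins, had 0.126% and 0.0628% and 0.312% and 0.384% of their reads from C57BL/6J, and Gm10639 had 0.142% and 0.346%. The Mup, Mug, Sult and Gst genes are families of near copies, whose counts may be split among members or, where SPRET/EiJ differs in copy number, assigned to another copy, and their balance is uncertain.

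**Figure D5:**
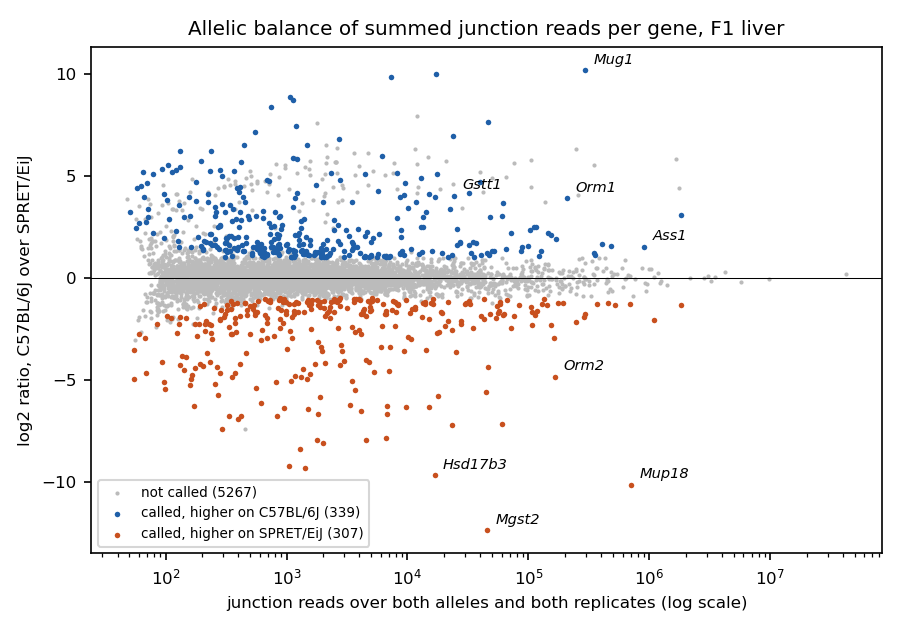
Log2 ratio of C57BL/6J to SPRET/EiJ junction reads (y axis) of 5913 genes against their junction reads over both alleles and both replicates (x axis, log scale). Blue points were called as higher on C57BL/6J (339) and orange points as higher on SPRET/EiJ (307); Mug1 (10.18) and Mgst2 (-12.37) mark the ends.

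Enzymes of xenobiotic metabolism were called for balance in 28 of 71 genes (39.4%), 13 higher on C57BL/6J and 15 on SPRET/EiJ, beside 10.9% of all genes. Their median |log2 ratio| was 0.88, against 0.34 over all genes. Cyp4a12a, a P450 of fatty acid hydroxylation, had 5.57% and 5.48% of its reads from C57BL/6J, and Sult1d1 and Gstt1 had 94.7% and 94.5%, and 93.6% and 94.9%. Many genes of this list, such as the Cyp, Ces, Ugt, Gst and Sult genes, belong to families of near copies. Their reads may be assigned to another copy, so the balance of these genes and the share called are uncertain. The other lists lay nearer to all genes: plasma proteins had 8 of 78 (10.3%), lipid and bile acid metabolism 9 of 84 (10.7%), transporters 4 of 41 (9.76%), splicing factors 4 of 59 (6.78%), amino acid, urea, haem and sugar metabolism 4 of 79 (5.06%) and transcription factors 1 of 31 (3.23%).

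In plasma proteins, Orm1 and Orm2, paralogous acute-phase orosomucoids, went apart. Orm1 had 94.5% and 92.9% of its reads from C57BL/6J, and Orm2 had 3.59% and 3.26%. As paralogues they may take each other's reads, so both values are uncertain. C8g, a subunit of the complement membrane attack complex, had 84.9% and 85.1%. In lipid metabolism, Acox2, a peroxisomal oxidase of bile acid intermediates, had 15.9% and 17.8% from C57BL/6J, and Cyp7b1, an oxysterol hydroxylase of the alternative bile acid pathway, had 25.0% and 20.8%. Pnpla3, a lipid droplet lipase, had 2.23% and 10.7%, from 4 and 25 reads. Ass1, the urea cycle enzyme argininosuccinate synthase, had 74.8% and 74.2% from 16 events. Among transporters, Slc47a1, or MATE1, had 88.6% and 88.7%, and Slc22a7, or OAT2, had 18.9% and 14.2%. Nfix was the called transcription factor, at 78.8% and 90.1%, and Hnrnpf, Rbm4, U2af1 and Srpk1 were the called splicing factors, with Hnrnpf at 14.5% and 11.9% and Rbm4 at 92.4% and 91.9%.

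Imprinted genes are expressed from 1 parental allele, so they show which parent an allele came from where the imprint holds in liver. Of the 66 listed, 12 had enough reads and 3 were called, beside 10.9% of all genes tested. Sgce, which is expressed from the paternal allele, had 9.18% and 2.08% of its reads from C57BL/6J, the maternal allele here, from 98 and 96 reads. H13 had 76.9% and 76.6% and Cobl had 80.9% and 92.8% from C57BL/6J. The other 9 were not called, with C57BL/6J shares from 18.8% to 61.0%.

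Only 2 of 9272 events (0.0216%) measured in both organs differed in their allelic ΔPSI between liver and kidney at an adjusted p under 0.05 and a difference of at least 0.1, while 471 passed an unadjusted p under 0.05. Of the 157 events called in liver and measured in kidney, 156 had the same sign there, and 38 differed by at least 0.1 without regard to a test. As the liver data came from earlier work, organ and the study that made the data cannot be told apart here. Tprkb, a protein of the KEOPS complex that modifies transfer RNA, had a PSI of 0.137 and 0.117 on C57BL/6J and 0.428 and 0.677 on SPRET/EiJ in liver (108-base exon, chr6:85919917-85920024, + strand). In kidney the order was the opposite, with 0.270 and 0.255 on C57BL/6J and 0.111 and 0.146 on SPRET/EiJ, and the difference of both ΔPSI was -0.560 (adjusted p = 0.00314). Ugt1a10, a glucuronosyltransferase of the Ugt1a locus, whose genes share their downstream exons, had 0.0967 and 0.127 against 0.323 and 0.522 in liver and 0.0869 and 0.0644 against 0.917 and 0.902 in kidney (75-base exon, chr1:88056262-88056336, + strand). In liver these values rested on 422 and 362 C57BL/6J reads beside 39 and 57 SPRET/EiJ reads. In kidney there were 390 and 349 beside 4226 and 4398, and the part of this change in the difference was not tested. The ΔPSI of Ugt1a10 was -0.311 in liver and -0.834 in kidney (adjusted p of the difference 0.0145). With the library as a block, both had an adjusted p of 0.942, and with the block and the prior of the fit without it 0.00102 and 0.00470. Without liver replicate 2 the adjusted p of Tprkb was 0.0820, without either kidney replicate it was 1, and without liver replicate 1 the call remained (0.00866). For Ugt1a10 it was 0.934 without liver replicate 2 and 1 without any of the other 3 libraries.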

How the data were processed

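Liver RNA-seq of 2 F1 hybrid libraries was used as junction read counts of skipped exons. Per the study's methods, the authors aligned stranded libraries with HISAT2 2.0.1 to mm10 and to a SPRET/EiJ genome, assigned each read to the genome it matched with fewer edits, and counted junction reads per allele with rMATS. Reads equal on both genomes carry no allele, so events with few variants have few allelic reads, and near copies of a gene can take each other's reads. The deposited tables list the counts of 2 replicates, whose order was taken as the replicate number, with effective form lengths. The authors' own p-values and PSI differences were not used. The deposited TPM per gene, made by the authors from all reads, served for markers only. Columns of per-sample values left unmapped numbered 0.

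Inclusion against skipping was fitted per event by a quasi-binomial model (allele as the term, no block) in R 4.3.3. Pearson dispersions were moderated with limma 3.58.1 squeezeVar toward a depth trend, with the prior from events with at least 5 reads of the rarer form, and then floored at 1. F test p-values were adjusted by Benjamini-Hochberg over all members. This order of moderation and floor had been fitted to the data before it was compared, on simulated counts, with a floor before moderation, which gave more false calls in most simulated settings, as many in another, and was not fitted to the data. Liver against kidney was the allele-by-tissue term of the same model. A quasi-likelihood count model had been chosen for gene balance but was not run. Limma-voom with median-ratio size factors was used instead, on genes with at least 20 reads on an allele in both replicates. The quasi-binomial fits and the balance fit were tested on simulated data with known changes. Limma-voom on inclusion and skipping counts and the blocked fits of liver against kidney were not. Of 200 changed events in liver, the fit without a block recovered 36.5% and the block with its own prior 0. The block with the borrowed prior recovered 25.5%. The absence of calls with the block therefore says little.

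The members, the lists and the named genes were chosen with earlier results of these data known. Beside the named exons, list members were named up to 4 for PSI and up to 3 for balance, balance genes were the 8 largest called ratios in each direction with at least 200 reads, and at most 6 liver-kidney exons were named. A few list members that these rules select are not reported here. The alleles of a library are a true pair, and the correlation of their replicate differences was 0.0939 over 2681 events. Of 5164 member genes, 5134 were found in the RefSeq table of GRCm38.p6, which gave gene coordinates. Intervals are exact Clopper-Pearson and cover counting error only. They treat reads or events as independent, so they are too narrow where events overlap. Alternatives were another prior, other read limits, subsets of events, leaving out each count and the block; those with a borrowed prior and limma-voom on PSI were added after the data were seen.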

Additional observations from a re-analysis of the deposited data

Results flagged for a closer look

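The allelic ΔPSI of the Tprkb exon differed between liver and kidney by -0.560, with opposite signs in both organs, and that of the Ugt1a10 exon by 0.523, with the same sign in both. Both differences were tested by the interaction of allele and tissue in the report, and neither was called with the replicate block. On the X chromosome, which was left out of the comparisons, C57BL/6J held 45.1% (exact 95% interval 44.9% to 45.2%) of 507393 allelic junction reads in replicate 1 and 38.2% (38.1% to 38.4%) of 423019 in replicate 2. A read counts once for each event it supports, so these intervals are too narrow even for counting error. Over both replicates, Rgn and Otc alone had 339437 and 195946 of these reads, so the pooled shares rest largely on them. Of 143 X-linked genes with enough reads, 109 were under 50% C57BL/6J in both libraries and 15 above it in both. The median share of C57BL/6J was 40.6% and 34.7% over these genes, beside 50.4% and 50.3% over autosomal genes.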

How the results depend on the processing

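The number of events with an allelic PSI difference was 190 and depended most on how the spread was estimated. With the replicate block it was 0, with the block and the prior of the unblocked fit 104, with limma-voom 66, and with only the events away from PSI 0 and 1 it was 365. Leaving out 1 allelic count gave 1 call in each case, and 59, 61, 38 and 43 without C57BL/6J replicates 1 and 2 and SPRET/EiJ replicates 1 and 2 where the prior of the full data was kept; with so few residual degrees of freedom these fits have little power. The other read limits, priors and subsets gave 156 to 187 calls. The share of calls higher on C57BL/6J was 66.7% with limma-voom and 69.5%, 70.5%, 68.4% and 69.8% without each count in the same order. It was 51.2% with only the events away from PSI 0 and 1, and lay between the reported 56.8% and 59.6% under the others. Of the 24 named exons, all kept their sign in each replicate alone, which their choice required, and in pooled reads. None was called under the block with its own prior, and 21 were with the prior of the unblocked fit. The limma-voom fit did not call 8 of them, and Slc29a1 and 1300002K09Rik were lost without the filter on reads. The difference between liver and kidney was called for 2 events, and for 0 with the replicate block, 1 with at least 50 reads and 0 to 1 without 1 library. The median |ΔPSI| was 0.0103 and ranged from 0.00718 in replicate 1 alone to 0.0165 with at least 1 read. The 646 imbalanced genes ranged from 436 to 822 without 1 count and stayed within 1.5 times under every alternative run. Other count models (quasi-likelihood and negative binomial) were not run. Read depth limits all of this: few differences in events with 365 reads or less reached a call.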
